A study of Mus musculus with 6 samples.

Results

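The tripartite motif (TRIM) genes were followed in RNA sequencing of samples labelled as heart tissue, from mice given L-proline or vehicle. Members were all genes of the deposited table whose symbol is Trim, a number and at most 1 small letter, which gave 49 of 14408 listed genes; the rule reads the symbol alone. All 6 libraries were labelled as heart tissue, collected from left ventricle, of C57BL/6J males. The mice are given as 8 weeks old ahead of the diet, and their age at collection is not stated. Every mouse was fed a high-fat diet with L-NAME, which blocks nitric oxide synthases, at 0.5 g/L in the drinking water for 8 to 12 weeks, which serves to model heart failure in which the ejection fraction is preserved. A group of 3 libraries then came from mice injected with PBS and a group of 3 from mice injected intraperitoneally with L-proline at 300 mg/kg per day for 4 to 8 weeks. No group without the diet and L-NAME was among the samples, and the labels do not say whether each library came from its own animal. The p-values therefore speak only of the scatter among libraries, and some of that scatter may be technical.

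TRIM proteins share an N-terminal build of a RING finger, which recruits a ubiquitin-loaded enzyme, then B-box zinc fingers and a coiled coil through which they assemble. The C-terminal part differs between subfamilies and picks the target: a SPRY domain in the largest, PHD and bromodomains that read chromatin in another, an NHL propeller in a further one. Many SPRY members are induced by interferon and act as antiviral restriction factors or as regulators of RIG-I, MAVS and NF-kappa-B signalling. In striated muscle the family is best known for the MuRF ligases, which mark sarcomere proteins for breakdown.

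Levels are in FPKM, fragment counts scaled by gene length and by library total, which allows comparison between genes of different length. The values proved to be whole multiples of 1 fragment, and 34990473 to 37498030 fragments per library were recovered from them. Within a group, libraries differed by more than counting noise (chi-square over its degrees of freedom, 7.81 to 78.8). Defining markers of heart muscle were low or absent from the table. Of 10 cardiomyocyte markers 5 were listed, 4 of them at 0.212 FPKM or less throughout, among them Ttn and Myl2; Myh6 and Actc1 were not listed. The remaining one, Tnnt2, stood at 32.0 ± 0.777 (SD, n = 3) in PBS and 14.5 ± 1.51 in L-proline. Of 8 fibroblast markers 6 were listed, Lum and Tcf21 not. The listed ones summed to 2025 to 2074 FPKM in PBS and 2756 to 3124 in L-proline. Most of this came from Col1a1, Col1a2 and Col3a1, with Col3a1 as the most abundant. Endothelial markers summed to at most 0.972 FPKM. Of 6 pericyte and smooth muscle markers 4 were listed, and they summed to 80.5 to 96.0 FPKM in PBS and 57.2 to 78.8 in L-proline. Most of this was Tagln, at 84.0 ± 7.75 in PBS and 64.3 ± 10.2 in L-proline, which did not pass (limma, adjusted p = 0.0569). Cnn1 had a mean of 3.09 in both groups, Rgs5 and Myh11 did not exceed 0.145, and Kcnj8 and Abcc9 were not listed. The name of the tissue thus rests on the labels alone. The collagen genes Col1a1, Col1a2 and Col3a1 rose, Pdgfra fell from 7.84 ± 0.463 to 5.97 ± 0.135 FPKM (limma, adjusted p = 0.0215), and Dcn and Postn did not pass. Tnnt2 and 4 fibroblast markers thus differed between the groups, and their part in the results on TRIM genes was not tested. In such bulk RNA, fewer cells of a type and less RNA per cell cannot be told apart.

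Among the 49 members, 33 had a mean of at least 1 FPKM over the libraries and were tested, 67.3% against 72.9% of all genes. With L-proline 8 of these 33 rose and 2 fell by limma at an adjusted p under 0.05, and 23 did not pass; before adjustment 10 were higher and 3 lower at a p under 0.05. Over all tested genes 19.6% were called in either direction. The members' shares were 24.2% higher, against 7.50% of the 10500 tested genes, and 6.06% lower, against 12.1%. The higher share includes Trim34a and Trim34b, whose PBS means were under 1 FPKM and which reached the filter through the L-proline libraries. A ratio of means of at least 2 was reached by 3 of the 33, Trim25, Trim21 and Trim34b, against 1.24% of tested genes. The median log2 fold change of the tested members was 0.09 and that of all tested genes -0.06. The members that rose were Trim25, Trim21, Trim12c, Trim26, Trim56, Trim34b, Trim34a and Trim3, and those that fell were Trim44 and Trim16. Over all genes the calls were 788 higher and 1268 lower. After median-of-ratios scaling these became 993 and 919, and after quantile normalization 1077 and 1019, while the members stayed at 8 and 2 with the same genes. Without PBS 3, 5 members rose and 0 fell, and without PBS 1, 6 rose and 1 fell.

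**Figure D1:**
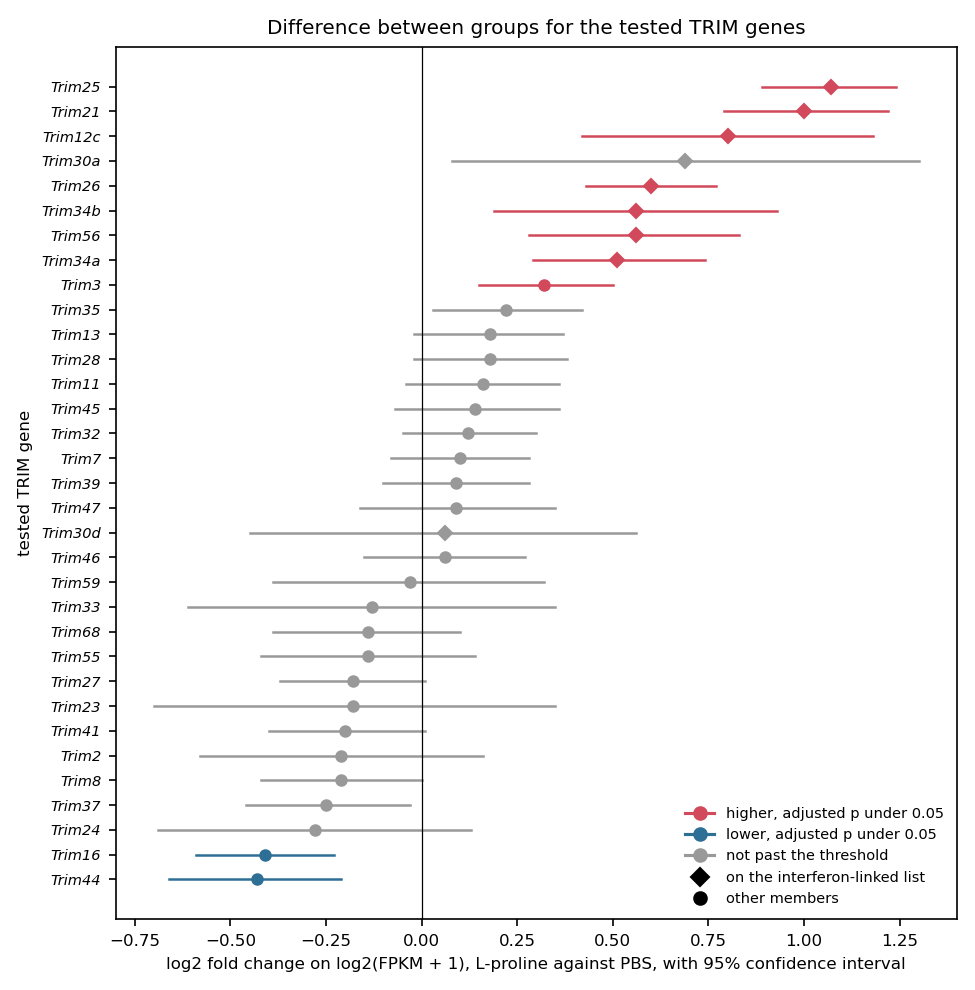
Log2 fold change between L-proline and PBS (horizontal axis, on log2(FPKM + 1)) for the 33 tested TRIM genes, with 95% confidence intervals from limma; diamonds are genes on the interferon-linked list and colours give the call. The genes at the top, from Trim25 at 1.07 down to Trim34a at 0.51, are all diamonds, and Trim16 and Trim44 lie at the bottom at -0.41 and -0.43.

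Most of the increases belonged to the interferon-linked antiviral members. Of 16 genes on this list, drawn up from textbook knowledge with earlier results of these data known, 13 were listed, 9 were tested, 7 rose and none fell (limma; 8 higher and 0 lower at an unadjusted p under 0.05). The share that rose was 77.8%, against 7.50% of all tested genes, and the median log2 fold change of the 9 was 0.60. Both values include Trim34a and Trim34b, which reached the filter through the L-proline libraries. In the other 24 tested members 1 rose (4.17%, against 7.50%) and 2 fell (8.33%, against 12.1%), with a median of -0.08; these shares are near those of all genes. Since the list was chosen with such results in view, its count is a description and not independent evidence of a direction.

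Trim25 encodes the ligase that attaches ubiquitin chains to the RNA sensor RIG-I. Its level was 13.2, 12.9 and 13.5 FPKM in PBS 1, 2 and 3 and 29.6, 26.6 and 30.2 in L-proline 1, 2 and 3. The lowest L-proline library lay far above the highest PBS library, and the libraries of each group stayed close together. The mean was 2.18-fold that of PBS, a difference on the log2 scale of 1.07 ± 0.08 (SE, n = 3 per group; limma, adjusted p = 0.000225), and rested on 2599 to 2778 fragments in PBS and 5220 to 6211 in L-proline.

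Trim21, a cytosolic receptor that binds the constant part of antibodies and directs antibody-coated virus to the proteasome, was lower in level. PBS 1, 2 and 3 had 2.62, 2.94 and 2.51 FPKM and L-proline 1, 2 and 3 had 7.02, 5.98 and 6.23. The groups did not overlap, and the ratio of means was 2.38. Its log2 fold change was 1.00 ± 0.09 (limma, adjusted p = 0.000515).

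Trim26, a SPRY ligase encoded in the major histocompatibility region, stood at 17.5, 17.4 and 18.1 FPKM in the PBS libraries and at 25.6, 28.2 and 28.3 in the L-proline libraries, in the order 1, 2 and 3. Both groups were tight, with coefficients of variation of 2.06% and 5.61%, and they did not overlap. The log2 fold change was 0.60 ± 0.07 (limma, adjusted p = 0.00157). Trim56, an antiviral ligase that supports STING signalling, had 7.77, 6.02 and 6.91 FPKM in PBS and 12.3, 9.69 and 9.85 in L-proline. L-proline 1 was the highest and PBS 2 the lowest, and no PBS library reached an L-proline one. Its log2 fold change was 0.56 ± 0.12 (limma, adjusted p = 0.0165), and without PBS 3 the adjusted p was 0.0655 (0.00566 to 0.0655 over 12 alternatives).

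**Figure D2:**
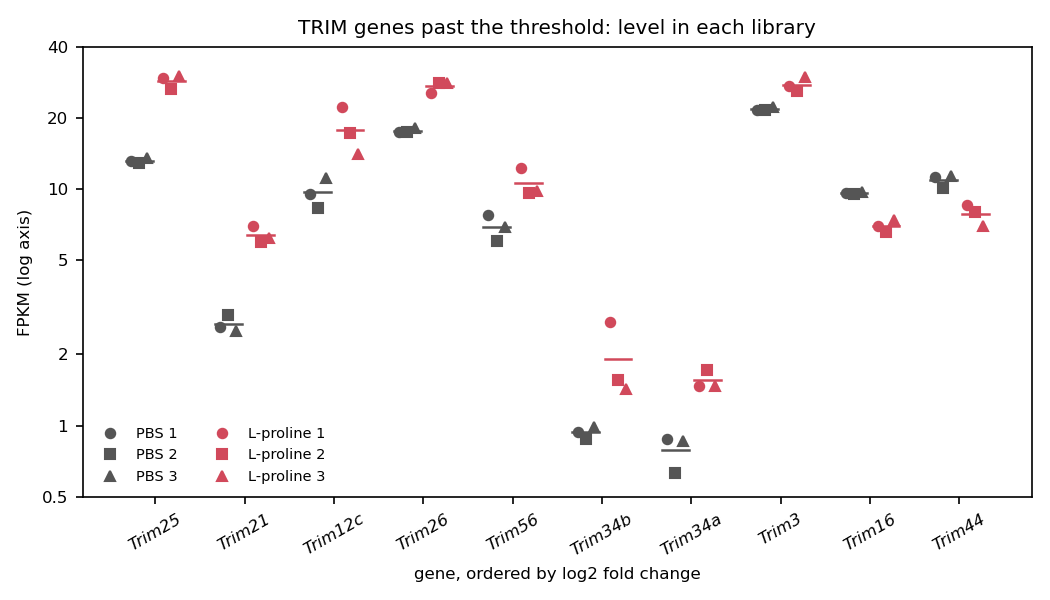
FPKM (vertical log axis) in each of the 6 libraries for the 10 TRIM genes past the threshold, PBS in grey and L-proline in red, with a marker shape per library number and a bar at each group mean. The groups do not overlap for any of these 10 genes, and L-proline 1 stands well above the other L-proline libraries for Trim12c and Trim34b.

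The next members lie in 1 cluster on chromosome 7. In RefSeq's order of protein-coding genes (GRCm38.p6, used for order only) it runs Trim6, Trim34a, Trim5, Trim12a, Trim34b, Trim12c, Gm38525, Trim30b, Trim30c, Trim30a and Trim30d. Trim12a, Trim30b and Gm38525 were not among the listed genes and were not analysed here. Trim12c, a rodent relative of the restriction factor TRIM5, went from 9.59, 8.37 and 11.2 FPKM in PBS 1, 2 and 3 to 22.2, 17.2 and 14.0 in L-proline 1, 2 and 3. The lowest L-proline library was still above the highest PBS library, but the L-proline values were spread, with a coefficient of variation of 23.2%. Its log2 fold change was 0.80 ± 0.16 (limma, adjusted p = 0.0129).

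Trim34a and Trim34b are a pair of near copies, also related to TRIM5, at much lower levels. Trim34a had 0.874, 0.632 and 0.862 FPKM in PBS and 1.47, 1.72 and 1.47 in L-proline, and Trim34b had 0.943, 0.880 and 0.988 in PBS and 2.75, 1.56 and 1.43 in L-proline, each in the order of libraries 1, 2 and 3. For both genes every L-proline library lay above every PBS library, and for Trim34b L-proline 1 stood apart from the others. Both had a PBS mean under 1 FPKM and reached the filter on low values through the L-proline libraries, so that their presence among the tested genes is tied to their being higher there. The log2 fold changes were 0.51 ± 0.10 (limma, adjusted p = 0.010) and 0.56 ± 0.16 (limma, adjusted p = 0.0449). The call of Trim34b was lost without each PBS library in turn, without L-proline 2 and with no filter (adjusted p 0.0146 to 0.124 over 12 alternatives), whereas Trim34a passed in all 12. In GENCODE M21 transcripts, 56.8% of the 50-base words of Trim34b also occur in Trim34a, and 39.8% of those of Trim34a occur in Trim34b. No source used here says how the authors' counting divided such fragments, so the split between the 2 genes is uncertain. The length recovered from the deposited values was 5598 bases for Trim34b, whose GENCODE M21 transcripts gave 1848 words. The shared part of Trim34b as counted by the authors may therefore differ from 56.8%.

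Trim30a encodes a brake on NF-kappa-B signalling that removes the adaptors TAB2 and TAB3. It was more abundant, with 12.6, 9.54 and 14.0 FPKM in PBS 1, 2 and 3 and 30.8, 18.9 and 13.4 in L-proline 1, 2 and 3. L-proline 1 and 2 were above all PBS libraries, while L-proline 3 lay within their range. The difference did not pass (log2 fold change 0.69 ± 0.27, 95% interval 0.08 to 1.30; limma, adjusted p = 0.106), and without L-proline 3 the adjusted p was 0.0311 (0.0311 to 0.227 over the alternatives). Its neighbour Trim30d had 1.77, 1.11 and 1.82 FPKM in PBS and 2.76, 1.32 and 1.12 in L-proline. Here only L-proline 1 exceeded the PBS libraries, and the log2 fold change was 0.06 ± 0.22 with a 95% interval of -0.45 to 0.56. Of the 50-base words of Trim30a 5.98% are shared with another TRIM gene, and of those of Trim30d 7.49%; for Trim12c the share was 28.8%, most of it with Trim5.

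The other cluster members were near the limit of detection. Trim30c did not exceed 0.136 FPKM, Trim5 0.0542 and Trim6 0.0286. Trim30c had 1 to 6 fragments in PBS and 5 to 25 in L-proline, with the highest value again in L-proline 1. Trim5 and Trim6 were listed at 0 in PBS 2, which at 3 fragments allows up to 0.0208 and 0.0176 FPKM, counting error only.

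RefSeq promoter windows, 250 bases before to 50 after an annotated start (GRCm38.p6), were available for 35 of the 49 members, in 48 windows. For 39 of the 48, the first 40 transcribed bases occur in a GENCODE M21 transcript of that gene. All windows were searched on both strands for GAAA, any 2 bases and GAAA again. This is the core of the interferon-stimulated response element, bound by the interferon-activated complex and by IRF proteins. It occurred in 8 of the 35 members (22.9%) and in 3.99% of the 27025 genes with a window, or in 18.8% of member windows against 3.44% of all 32851 windows. The matched members were Trim2, Trim5, Trim12c, Trim21, Trim26, Trim30a, Trim30d and Trim34a. Of these Trim5, Trim12c, Trim30a, Trim30d and Trim34a lie in the chromosome 7 cluster, and Trim30a was matched at both its starts. Upstream, Trim30a and Trim30d are 89.0% identical and Trim5 and Trim12c 81.5%, so the matches are not all independent. Of the 7 members with a window that rose, 4 held a match, Trim12c, Trim21, Trim26 and Trim34a, as did 4 of the 28 others. Those others mix tested members that did not rise with members under the filter, among them the matched Trim5. The 7 include Trim34a and Trim34b, which reached the filter through the L-proline libraries. The counts are therefore a description and not a contrast of members that rose with members that did not. No window was in the table for Trim3, Trim8, Trim11, Trim14, Trim16, Trim17, Trim29, Trim33, Trim35, Trim36, Trim43b, Trim43c, Trim55 and Trim65. A match is a description of letters and not a site of binding.

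**Figure D3:**
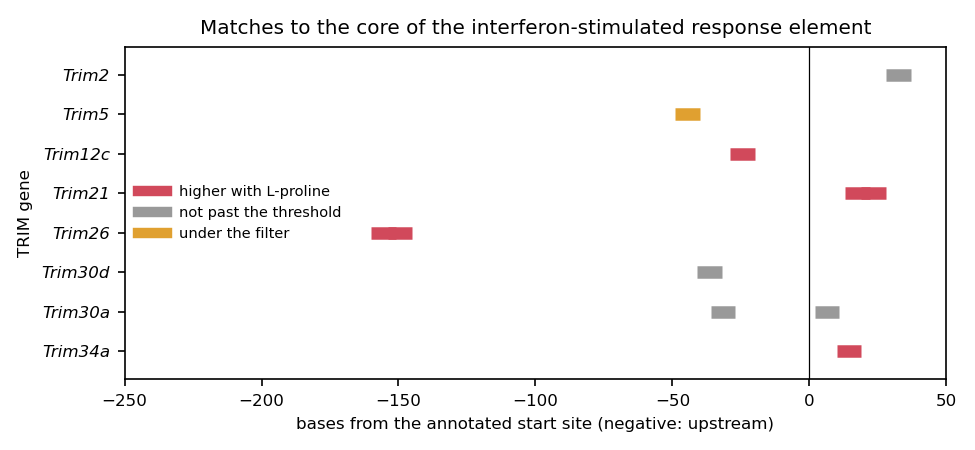
Position of each match to the core of the interferon-stimulated response element (horizontal axis, bases from the annotated start site, negative upstream) in the RefSeq windows of 8 TRIM genes, coloured by the call in L-proline against PBS. The matches of Trim5, Trim12c, Trim30d and 1 start of Trim30a lie between -49 and -20 bases, those of Trim26 between -160 and -145, and those of Trim2, Trim21, Trim34a and the other start of Trim30a after the start.

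The stretches around these matches are shown because the family members that rose and their cluster neighbours can be compared letter by letter. Each is 30 bases on the gene's strand, 5′ to 3′, with the match in capitals; runs of capitals longer than 10 bases are overlapping matches.
Trim2: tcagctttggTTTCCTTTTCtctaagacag
Trim5: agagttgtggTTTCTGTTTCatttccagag
Trim12c: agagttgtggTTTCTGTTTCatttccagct
Trim21: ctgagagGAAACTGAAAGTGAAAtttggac
Trim26: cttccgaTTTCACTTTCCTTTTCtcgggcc
Trim30a, second start: ttgtttttagTTTCTTTTTCtcagttcctg
Trim30a, first start: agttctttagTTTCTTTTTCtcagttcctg
Trim30d: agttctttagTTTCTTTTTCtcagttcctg
Trim34a: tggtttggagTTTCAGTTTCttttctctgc
On GRCm38.p6, from RefSeq, the first of these stretches lie at chr3:84212791-84212820 (minus) for Trim2, chr7:104288136-104288165 (minus) for Trim5, chr7:104353359-104353388 (minus) for Trim12c, chr7:102565447-102565476 (minus) for Trim21. Those of the others lie at chr17:36836979-36837008 (plus) for Trim26, chr7:104446104-104446133 (minus) for the second start of Trim30a, chr7:104465210-104465239 (minus) for the first start of Trim30a, chr7:104507871-104507900 (minus) for Trim30d, chr7:104244457-104244486 (plus) for Trim34a.

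The letters form families within the chromosome 7 cluster. Trim5 and Trim12c carry the same 10 capitals within a run that differs only at its 3′ end, although Trim12c stood at 8.37 to 22.2 FPKM and Trim5 at no more than 0.0542. Trim30a and Trim30d show the same 30 bases at a first start. Over 250 bases upstream of the start, Trim30a and Trim30d were 89.0% identical in a global alignment and Trim5 and Trim12c 81.5%. The pair Trim34a and Trim34b, by contrast, was at 51.7%, and Trim34b had no match in its window. Pairs of genes outside these families, such as Trim6 and Trim34b at 47.6%, lay between 38.7% and 55.1%. The lowest was Trim30c with the first start of Trim30a, and the highest Trim12c with that same start. Trim30c and Trim30d were at 39.3%. The 80 bases before the start of Trim5, Trim12c, Trim30a and Trim30d are given to show the shared stretches, with the match in capitals.
Trim5: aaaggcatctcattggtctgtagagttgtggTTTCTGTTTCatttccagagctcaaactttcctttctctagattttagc
Trim12c: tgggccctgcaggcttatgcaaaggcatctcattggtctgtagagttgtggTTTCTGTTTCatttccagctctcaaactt
Trim30a: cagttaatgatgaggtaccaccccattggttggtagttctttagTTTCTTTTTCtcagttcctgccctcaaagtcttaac
Trim30d: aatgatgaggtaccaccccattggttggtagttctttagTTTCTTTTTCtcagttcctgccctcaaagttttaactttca
These stretches, all on the minus strand of GRCm38.p6, lie at chr7:104288107-104288186 for Trim5, chr7:104353350-104353429 for Trim12c, chr7:104465194-104465273 for Trim30a, chr7:104507850-104507929 for Trim30d.

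A loose core of kappa-B sites, GGG and CC with any 5 bases between them, was searched in the same way. It was in 24 of 35 members (68.6%) and in 53.5% of all genes, and in 4 of the 7 members that rose and 20 of the 28 others. The 7 and the 28 are the same members as for the first motif, with the same limits. A window can hold both motifs, and their matches may share bases.

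Outside the interferon-linked list, Trim3 was the only tested member that rose. It encodes an NHL-type ligase described mainly in the brain. Its level was 21.7, 21.7 and 22.3 FPKM in PBS 1, 2 and 3 and 27.3, 26.1 and 29.8 in L-proline 1, 2 and 3. The PBS libraries lay within 1 FPKM of each other and all L-proline libraries above them. The log2 fold change was 0.32 ± 0.07 (limma, adjusted p = 0.0200), and the call was lost without any 1 of the PBS libraries (0.0160 to 0.0831 over 12 alternatives). The other NHL members did not pass: Trim32, mutated in a limb-girdle muscular dystrophy, at 13.9 ± 0.439 and 15.2 ± 0.915 FPKM, and Trim2, which targets a neurofilament protein, at 3.16 ± 0.512 and 2.63 ± 0.720 (SD, n = 3).

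The 2 members that fell both lack a RING finger. Trim44, which carries a ubiquitin-binding zinc finger instead, was at 11.3, 10.1 and 11.4 FPKM in PBS 1, 2 and 3 and at 8.62, 8.01 and 6.97 in L-proline 1, 2 and 3. Trim16, which takes part in the clearance of damaged lysosomes, was at 9.62, 9.57 and 9.71 in PBS and 7.01, 6.57 and 7.44 in L-proline. The groups did not overlap for either gene, and the PBS libraries agreed within 0.2 FPKM for Trim16. The log2 fold changes were -0.43 ± 0.10 (limma, adjusted p = 0.0182) and -0.41 ± 0.08 (limma, adjusted p = 0.00963). Trim44 lost its call without PBS 1 or PBS 3 (0.0105 to 0.0915 over 12 alternatives) and Trim16 without PBS 3 (0.00938 to 0.0575).

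A further RING-less member, Trim14, lay under the filter. It is an interferon-linked adaptor of MAVS at mitochondria. Its level was 0.234, 0.267 and 0.316 FPKM in PBS and 0.670, 0.452 and 0.507 in L-proline, from 31 to 41 fragments in PBS and 56 to 87 in L-proline. No PBS library reached the L-proline range, and the ratio of means was 1.99. Trim17, a ligase linked to death of neurons, had a ratio of means above that of any member past the threshold, 3.69, from 0.261, 0.363 and 0.294 FPKM in PBS 1, 2 and 3 to 1.21, 1.10 and 1.08 in L-proline 1, 2 and 3. Trim36, a microtubule-associated member known from sperm, was lower, with 0.453, 0.422 and 0.501 FPKM in PBS and 0.281, 0.214 and 0.275 in L-proline, again without overlap. With no filter these 3 genes passed (limma, adjusted p = 0.0257, 0.00111 and 0.0154), at log2 fold changes of 0.28 ± 0.06, 0.71 ± 0.05 and -0.22 ± 0.04, which the pseudocount of 1 makes smaller than the ratios. Without a filter 5.95% of all 14408 genes were called higher and 8.74% lower, and of the 3908 genes under it 4.32% and 4.79%.

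The most abundant member was Trim28, the corepressor that silences chromatin for KRAB zinc finger proteins. It had 77.0, 88.4 and 82.9 FPKM in PBS 1, 2 and 3 and 84.7, 98.5 and 98.7 in L-proline 1, 2 and 3. The groups overlapped and the log2 fold change was 0.18 ± 0.09, with a 95% interval of -0.02 to 0.38 (limma, adjusted p = 0.177). Without L-proline 1 the adjusted p was 0.0471 (0.0471 to 0.456 over the alternatives). Its relatives with PHD and bromodomains were lower and more variable. Trim24, a coregulator of nuclear receptors, had 6.28, 4.23 and 6.11 FPKM in PBS and 5.74, 3.91 and 3.57 in L-proline. Trim33, which acts on SMAD4 in TGF-beta signalling, had 6.67, 4.65 and 6.32 in PBS and 7.50, 4.98 and 3.79 in L-proline. For both genes PBS 2 was the lowest PBS library and L-proline 3 the lowest of all 6, the groups overlapped, and the intervals of -0.69 to 0.13 and -0.61 to 0.35 on the log2 scale include 0. Trim66 did not exceed 0.0475 FPKM.

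Other abundant members did not pass, among them Trim35, Trim8 and Trim59. Trim35, a SPRY ligase, had 50.4, 57.9 and 55.3 FPKM in PBS and 58.8, 64.6 and 68.2 in L-proline; the groups did not overlap, but the difference missed the threshold (log2 fold change 0.22 ± 0.08; limma, adjusted p = 0.0967), which it passed without L-proline 1 at 0.0382 (0.0382 to 0.311 over the alternatives). Trim8, which counteracts the cytokine inhibitor SOCS1, had 24.1, 28.2 and 26.9 in PBS and 20.6, 24.3 and 23.4 in L-proline, and its groups overlapped by less than 1 FPKM. Trim59, a membrane-anchored member, had 23.4, 22.6 and 26.5 in PBS and 27.6, 26.2 and 17.9 in L-proline, with L-proline 3 as the lowest library of all.

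Several members separated by group without passing. Besides Trim35, every L-proline library was higher for Trim11, Trim13, Trim45 and Trim7, and lower for Trim27, Trim37 and Trim41. Including the calls, 13 of 33 members did not overlap upwards (39.4%, against 16.0% of tested genes) and 5 downwards (15.2%, against 24.0%). The 13 include Trim34a and Trim34b, which reached the filter through the L-proline libraries. Of the 24 tested members outside the interferon-linked list, 6 did not overlap upwards and 5 downwards. Trim11 stood at 6.67, 6.11 and 6.78 FPKM with PBS and 7.10, 7.07 and 8.04 with L-proline, and Trim13, an endoplasmic reticulum ligase, 1.21, 1.17 and 1.21 in PBS and 1.37, 1.58 and 1.51 in L-proline. The filamin-type Trim45 was 1.01, 1.24 and 1.27 in PBS and 1.44, 1.28 and 1.47 in L-proline, so that the nearest libraries of the 2 groups lay within 0.1 FPKM. On the lower side, Trim27 was 14.3, 15.4 and 14.9 in PBS and 11.8, 13.7 and 13.5 in L-proline, and Trim41 15.7, 18.1 and 17.1 in PBS and 13.3, 15.5 and 15.3 in L-proline. Trim37, which restrains extra centrosomes, was 8.58, 7.63 and 8.29 in PBS and 7.37, 6.78 and 6.08 in L-proline (log2 fold change -0.25 ± 0.09; limma, adjusted p = 0.0985), and passed without L-proline 1 at 0.0484 (0.0484 to 0.286 over the alternatives). The other tested members, Trim23, Trim39, Trim46, Trim47, Trim55 and Trim68, overlapped, with log2 fold changes between -0.18 and 0.09.

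**Figure D4:**
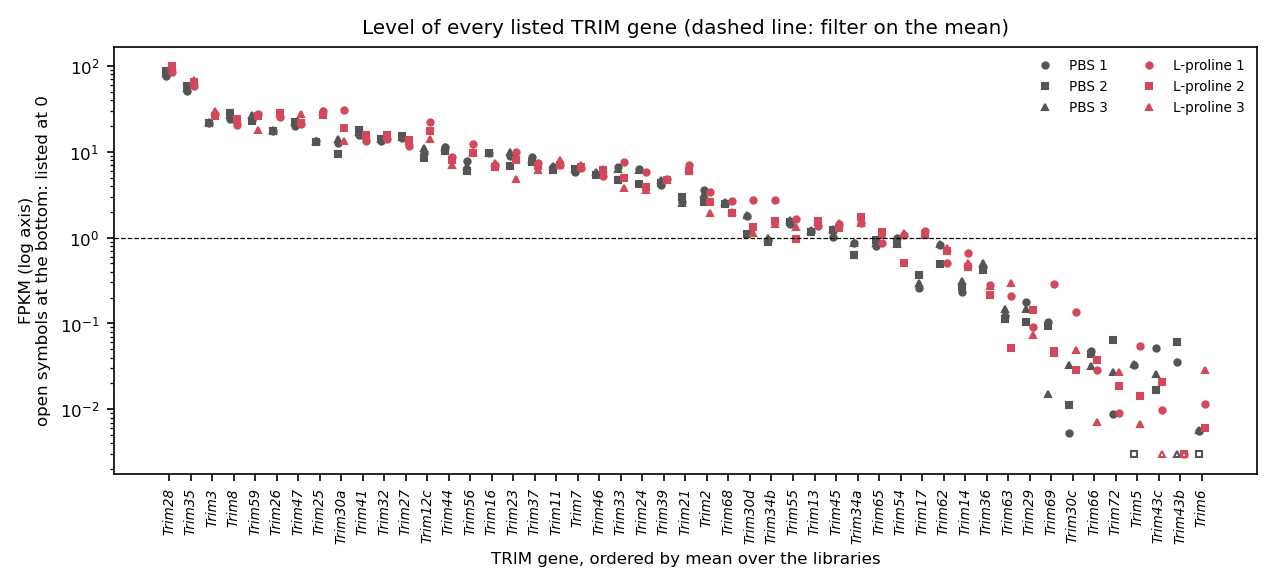
FPKM (vertical log axis) of all 49 listed TRIM genes in each library, ordered by the mean over the 6 libraries; the dashed line marks 1 FPKM, the filter on the mean, and open symbols at the bottom are values of 0. Trim28 leads with values between 77.0 and 98.7 and Trim35 follows, while 8 genes have a mean under 0.1.

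Of the 5 striated muscle members, Trim54, Trim63 and Trim72 lay under the filter, in libraries in which most heart muscle markers were also low or not listed. Trim63, or MuRF1, the atrophy-linked ligase of the sarcomere, had 0.121, 0.114 and 0.148 FPKM in PBS 1, 2 and 3 and 0.210, 0.0518 and 0.296 in L-proline 1, 2 and 3. Trim54, or MuRF3, had 0.992, 0.872 and 0.836 in PBS and 1.08, 0.504 and 1.14 in L-proline, and Trim55, or MuRF2, 1.45, 1.53 and 1.61 in PBS and 1.65, 0.968 and 1.32 in L-proline. These 3 genes overlapped between groups, and L-proline 2 was the lowest library for each. Trim72, or MG53, a membrane repair protein of muscle, did not exceed 0.0643 FPKM and was backed by 1 to 7 fragments per library. Trim7, which binds the glycogen primer glycogenin and is known from skeletal muscle, was at 5.88, 6.26 and 6.34 in PBS and 6.40, 6.64 and 7.0 in L-proline (log2 fold change 0.10 ± 0.08; limma, adjusted p = 0.391). None of the tested muscle members, Trim55 and Trim7, passed by limma, and none was under 0.05 before adjustment.

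The remaining members under the filter were Trim65 with at most 1.17 FPKM, Trim62 with 0.839, Trim69 with 0.290, Trim29 with 0.179, Trim43b with 0.0615 and Trim43c with 0.0511. Trim43b had 3 and 5 fragments in PBS 1 and 2 and was listed at 0 in PBS 3 and in all L-proline libraries, which at 3 fragments allows up to 0.0361 to 0.0380 FPKM each.

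Single libraries stood at the edge of their group for many members. Over the tested members, PBS 2 was the lowest PBS library for 21 of 33 (63.6%, against 39.4% of all tested genes) and PBS 3 the highest for 21 (63.6%, against 28.7%). L-proline 1 was the highest of its group for 16 of 33 (48.5%, against 35.0%). In the chromosome 7 cluster PBS 2 and L-proline 3 were the lowest of their groups for all 5 tested genes, Trim12c, Trim30a, Trim30d, Trim34a and Trim34b. L-proline 1 was the highest of its group for 4 of them, the exception being Trim34a. The coefficient of variation in L-proline had a median of 9.46% over the members and 10.1% over all tested genes, and reached 51.7% for Trim30d and 42.3% for Trim30a. In PBS the medians were 6.86% and 6.94%.

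**Figure D5:**
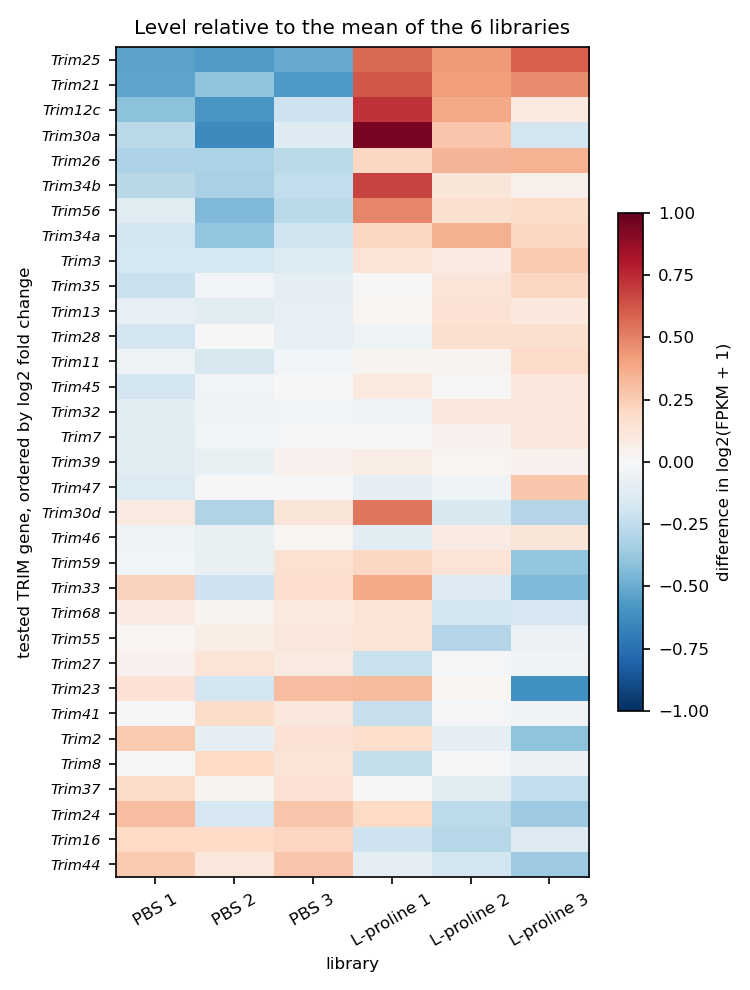
Difference of log2(FPKM + 1) from the mean of the 6 libraries (colour, blue below and red above) for the 33 tested TRIM genes, 1 row per gene ordered by log2 fold change and 1 column per library. The rows of Trim25, Trim21 and Trim12c turn from blue in PBS to red in L-proline, while Trim30a is blue in L-proline 3. Trim30a, Trim30d and Trim34b are reddest in L-proline 1, and Trim23, Trim24, Trim33 and Trim2 are bluest in L-proline 3.

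Markers of immune cells were read beside the interferon-linked members. Of 7 macrophage markers 4 were listed, and their sum was 19.7 to 22.2 FPKM in PBS and 21.8 to 25.4 in L-proline. Cd68 rose from 3.17 ± 0.536 to 5.19 ± 0.297 FPKM (limma, adjusted p = 0.0101). The other tested ones did not pass: Cd14 at 15.6 ± 1.58 and 16.5 ± 1.22 FPKM, and Lyz2 at 1.69 ± 0.508 and 1.88 ± 0.524 (limma, adjusted p = 0.583 and 0.723). Adgre1, Ptprc and C1qa were not listed, and Csf1r did not exceed 0.274 FPKM. Of 9 T, NK and B cell markers 2 were listed, and these summed to at most 0.152 FPKM. The part of such cells in the results was not tested.

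TRIM proteins filed under other symbols did not pass. Pml, the scaffold of nuclear bodies, averaged 17.0 ± 0.519 FPKM with PBS and 18.1 ± 0.920 with L-proline, Mid1 11.6 ± 0.135 and 13 ± 0.262, and Mid2 4.52 ± 1.10 and 3.13 ± 0.970. All 3 were tested with limma, and none was under 0.05 before adjustment.

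Genes that TRIM ligases act on or with were described from 3 lists, also drawn up with earlier results known. Of 16 tested genes of nucleic acid sensing 6 rose and 0 fell (limma; 6 higher and 2 lower at an unadjusted p under 0.05), with a median log2 fold change of 0.07. That is 37.5% higher, against 7.50% of all tested genes, and none lower, against 12.1%. Dhx58, the RIG-I relative LGP2, went from 9.12, 10.3 and 9.62 FPKM in PBS 1, 2 and 3 to 34.4, 34.6 and 38.1 in L-proline 1, 2 and 3. The transcription factor gene Irf7 went from 14.1 ± 2.08 to 41.3 ± 4.20, the MDA5 gene Ifih1 from 3.44 ± 0.379 to 7.69 ± 2.01. Rigi, which encodes RIG-I, the substrate of TRIM25, went from 15.4, 17.1 and 19.1 to 32.8, 31.4 and 29.5 FPKM (log2 fold change 0.83 ± 0.09; limma, adjusted p = 0.00111). Of the 2 others that rose, named after their values were seen, Zc3hav1 encodes the antiviral protein ZAP that works with TRIM25 (15.1 ± 0.782 to 23.7 ± 3.48), and Rnf135 encodes Riplet, another RIG-I ligase (5.45 ± 1.15 to 8.43 ± 0.629). The downstream genes Mavs, Sting1, Tbk1, Traf3, Traf6 and Irf3, and Tab2, the target of TRIM30a, did not pass.

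Of 19 tested genes of ubiquitin and its E1 and E2 enzymes 2 rose (10.5%, against 7.50% of all tested genes) and 0 fell (limma; 5 higher and 0 lower at an unadjusted p under 0.05). These were Uba7, the E1 for ISG15, from 3.78 ± 0.691 to 9.32 ± 0.217 FPKM, and Ube2l6, the E2 for ISG15, from 40.1 ± 6.02 to 69.6 ± 6.02, both better known for that modifier than for ubiquitin. The E2 genes on which RING ligases mainly draw, among them Ube2d1, Ube2d3 and Ube2n, did not pass. In the 15 chromatin partners of Trim24, Trim28 and Trim33, 1 rose (6.67%, against 7.50%), the p53 ligase gene Mdm2 (26.8 ± 2.61 to 37.3 ± 4.85 FPKM), and 0 fell (limma; 1 lower at an unadjusted p under 0.05). Pooling these 3 lists with the other symbols, 9 of 53 rose, 17.0% against 7.50% of all tested genes, and 0 fell. Of the 9, 6 came from the nucleic acid sensing list, and the others were Uba7, Ube2l6 and Mdm2. The pooled share is thus a description, carried mostly by 1 list that was drawn up with earlier results known. Without L-proline 1, 11 rose and 4 fell, namely Cbx5, Mid2, Rarb and Tab2.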

How the data were processed

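The authors deposited 1 table of FPKM values per gene and library, per the file headers. Per the submitters' processing notes, the tools were HISAT2 and HTSeq 0.13.5 and the build GRCm39, with no roles stated; the gene set, the length used and the handling of multi-mapped fragments are not given in the sources used here. Fragments were recovered with library totals solved from the 13 mitochondrial genes, and 14407 of 14408 genes gave whole numbers within 0.01. Groups and replicate numbers come from the sample titles.

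Differences were tested with limma 3.58.1 in R 4.3.3 on log2(FPKM + 1), with a mean-variance trend, on genes with a mean of at least 1 FPKM, two-sided, with Benjamini-Hochberg adjustment over all 10500 at a threshold of 0.05; such fold changes understate those of low genes. The script was tested on simulated data. Members and lists were chosen with earlier results of these data known. Members past the threshold, abundant or non-overlapping members and muscle members are given by library, and up to 4 genes per other list by smallest p. The 12 alternatives cover scaling, pseudocount, filter, voom, replicate block and each library left out. Promoters are RefSeq's for GRCm38.p6, aligned with Biopython 1.88; protein sequences were not used here, and a further motif searched is not reported here.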

Additional observations from a re-analysis of the deposited data

How the results depend on the processing

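Trim12c, Trim21, Trim25, Trim26 and Trim34a kept their call and direction under all 12 alternatives. Of the alternative values for single members, 371 kept direction and call, 12 lost the call, 5 gained it and 8 turned sign; Trim14, Trim17 and Trim36, under the filter, were fitted only without it. The members that rose numbered 5 to 10 and those that fell 0 to 3 when 1 library was left out, and all genes 362 to 965 higher and 508 to 1797 lower. Without L-proline 1 the members called were the most, 10 higher and 3 lower; the cause was not tested. In the other lists 7 to 11 rose and 0 to 4 fell without 1 library, and 1 fell with voom (Ikbke) and 1 with the replicate block (Tab2). Among members not past the threshold, leaving out 1 library gave log2 fold changes of both signs for Trim23 (-0.38 to 0.08), Trim33 (-0.35 to 0.06), Trim47 (-0.02 to 0.17), Trim30d (-0.20 to 0.22) and Trim59 (-0.15 to 0.15). The turned values were those without L-proline 3 for Trim23, Trim33, Trim47 and Trim59, without PBS 3 for Trim59 (0.03), and without PBS 2 (-0.08) or L-proline 1 for Trim30d. Median-of-ratios scaling also turned Trim59 (0.03).

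With the replicate block 9 members rose, Trim35 added, and 2 fell, and over all genes 908 rose and 1475 fell. Same-numbered libraries deviated from their group means with correlations of 0.651, 0.416 and -0.348 across genes, and not every library went best with its own number, so the numbers were not taken as pairs. For members with few fragments, such as Trim5, Trim6 and Trim72, a modest difference cannot be told from counting error at this depth. Trim6, for example, had 0 to 1 fragments in PBS and 1 to 5 in L-proline.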

Other observations

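Several family genes lie side by side. By RefSeq's order of protein-coding genes, Trim41 and Trim7 lie next to each other on chromosome 11, with log2 fold changes of -0.20 ± 0.09 and 0.10 ± 0.08, neither past the threshold, and Trim47 lies next to Trim65. Trim47 was 20.2, 22.3 and 22.4 FPKM in PBS 1, 2 and 3 and 20.8, 21.8 and 27.3 in L-proline 1, 2 and 3, and Trim65, a ligase for MDA5, 0.803, 0.946 and 0.855 in PBS and 0.863, 1.17 and 1.06 in L-proline. Their transcripts share 50-base words, 6.58% of those of Trim47 and 3.05% of those of Trim65, so a part of the fragments may be divided between them. On chromosome 7 the adjacent genes Trim34b and Trim12c both rose, and the adjacent Trim30a and Trim30d had ratios of means of 1.74 and 1.11.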
